A study of Mus musculus with 6 samples.

Results

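Mbp and Fgfr3, a pair of genes best known from glial cells, were both listed as lower in the striatum of mice without the RNA-binding protein HuD. Of their 6 listed probes, 5 read messenger RNAs of Mbp and 1 read Fgfr3. The arrays held RNA from the striatum of 3 adult HuD-KO mice, in which both copies of the HuD gene Elavl4 are disrupted (Elavl4-/-, spelled Elalvl4-/- in the labels), and of 3 adult wild-type littermates (WT), 1 array per mouse. Age in weeks, sex and strain background are not given in the labels, and no agent is named for either group. The loss of HuD is constitutional in these mice, so every cell of the tissue carried the genotype.

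The genes were chosen by their presence in the deposited lists of transcripts that differed over 2-fold between HuD-KO and WT, with a p-value under 0.05 in the authors' own unpaired test. They are 2 of the 1031 gene symbols in those lists, and their 6 probes are 6 of 1088 listed transcripts, of which 790 are listed as lower and 298 as higher in HuD-KO. The probes were therefore selected on the same arrays and the same contrast that is described here. Their group differences are given as a description, with their standard errors and without p-values.

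HuD is a protein of neurons that binds AU-rich stretches of messenger RNAs and affects their stability and translation. Myelin basic protein, encoded by Mbp, is made by oligodendrocytes and holds together the inner faces of the myelin membrane, and its messenger RNA is carried into the processes of the cell and translated there. Alternative splicing of Mbp gives several forms of the protein, and an upstream start in the same gene gives the golli forms, which are also made outside myelin. Fgfr3 encodes a receptor tyrosine kinase for fibroblast growth factors (FGFs) which in the brain is best known from astrocytes and glial progenitors. In bulk tissue such as this, fewer cells of a type and less RNA per cell cannot be told apart.

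Fgfr3 was read by 1 probe, for transcript NM_001163217, which the deposited lists place on the plus strand of chromosome 5 between 33722305 and 33737068, in coordinates whose genome build they do not name. The first and last base of the probe lie at 33731408 and 33732721, which is 1313 bases apart for a probe of 60 bases, so it reads across at least 1 exon junction of the spliced RNA. No other transcript is listed as matching it, and it represents 1 of the 7 curated RefSeq transcripts of the gene. The probe is shown because the entire Fgfr3 result rests on this single sequence, given in lower case throughout as the position of the junction within it is not stated.
Fgfr3 probe, 5′ to 3′: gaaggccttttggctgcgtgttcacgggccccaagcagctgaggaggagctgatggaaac

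The Fgfr3 probe was dim. Its processed signal, which is the spot brightness after background subtraction by the scanner software, was 8.05, 10.4 and 13.9 on HuD-KO replicates 1, 2 and 3. It was 35.98, 59.9 and 29.4 on WT replicates 1, 2 and 3. The scanner software marked the probe as well above background on 3 of 3 WT arrays and on 0 of 3 HuD-KO arrays. No HuD-KO array reached the level of a WT array, which was also so for 22.5% of all tested probes. That separation follows from the way the probe was chosen, and nothing is read from it.

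On the scaled log2 level, which is the log2 signal minus the 75th percentile of the same array, Fgfr3 stood at -3.52 ± 0.52 (SD, n = 3) in WT. The measured HuD-KO level was -5.72 ± 0.30 (SD, n = 3), a log2 difference of -2.19 with an SE of 0.29. Because HuD-KO was not well above background, the difference was taken as a bound against the lowest signal well above background on each HuD-KO array. By that bound the Fgfr3 level of HuD-KO was 2.73-fold below that of WT. The bound rests on the dimmest of all target probes so marked and not on a detection limit of the Fgfr3 spot. With normexp background correction, in which a constant of 50 was added to every signal, dim or bright, the same bound was 1.69-fold. This is under the 2-fold limit of the lists.

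The signal of the Fgfr3 spot before subtraction was 1.76 to 2.31 times its local background in HuD-KO and 3.28 to 5.06 times in WT. The local background itself was alike, at 16 to 19 in HuD-KO and 15.5 to 18 in WT. Within WT, replicate 2 was the highest, and without it the bound was -1.15 on the log2 scale. The spread of Fgfr3 within WT exceeded that of 92.7% of all tested probes.

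**Figure D1:**
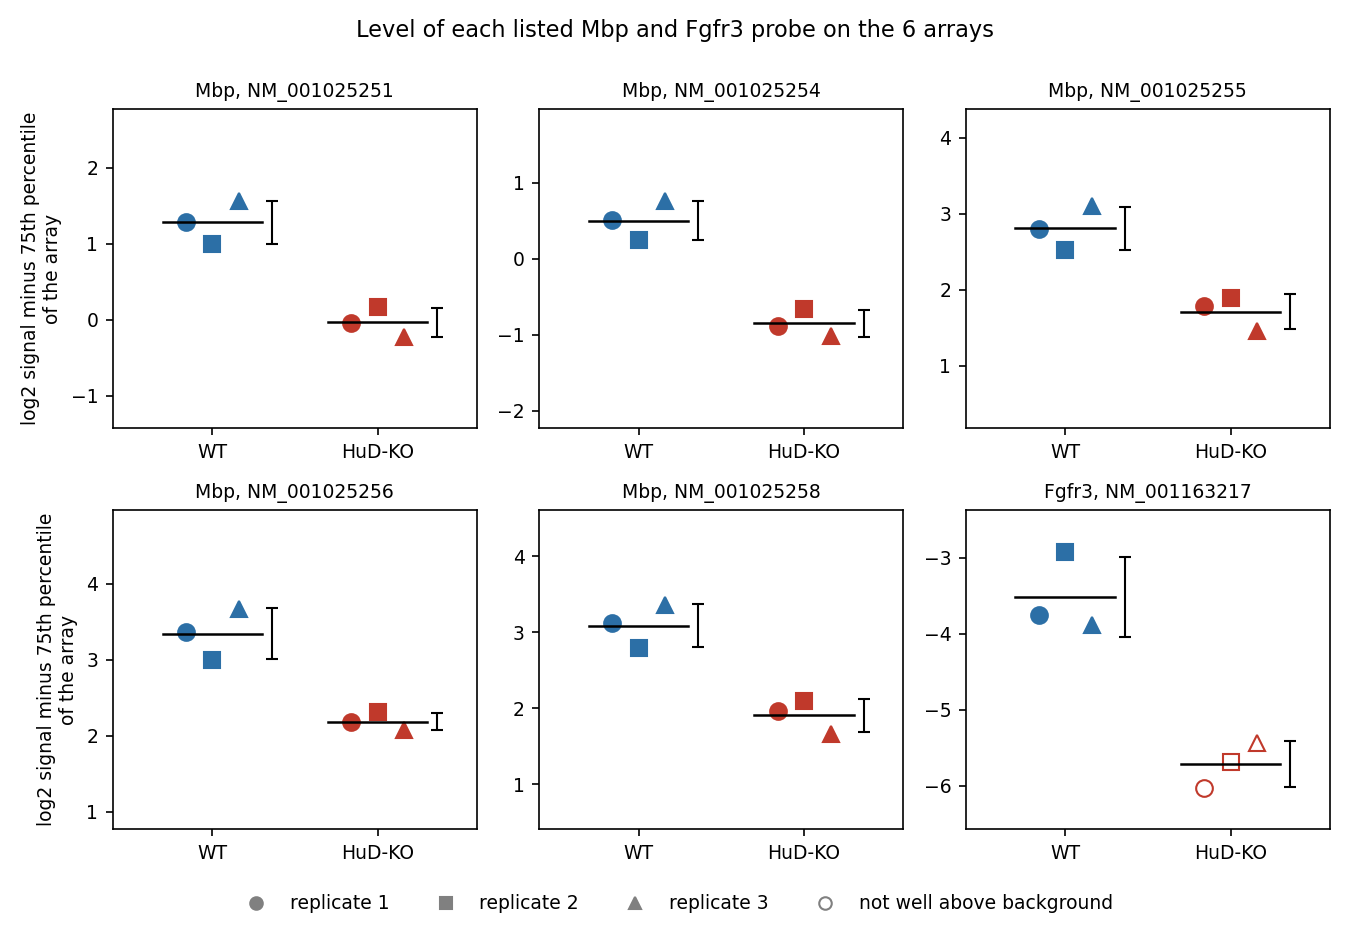
Scaled log2 level (log2 processed signal minus the 75th percentile of the array) of the 5 Mbp probes and the Fgfr3 probe on the 6 arrays. Symbols are single arrays, horizontal lines are group means, vertical bars are ± 1 SD (n = 3), and open symbols were not well above background. Every panel spans the same range. In each the HuD-KO arrays lie below the WT arrays, as for 22.5% of all tested probes, which follows from the way the members were chosen.

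Mbp was read by 5 probes, each for a different listed transcript and each with 1 spot on the array. The listed transcripts lie on the plus strand of chromosome 18, start at 82554462 or 82554507 and all end at 82585637, in the same coordinates. Of the 8 curated RefSeq transcripts of Mbp, the probes are listed as matching 6. Since the probes overlap in what they read, they are not 5 independent measurements of the gene.

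The lists name, for each probe, the transcripts it can bind. The probe for NM_001025251 also matches NM_001025255, and the probe for NM_001025254 also matches NM_001025258. The probes for NM_001025255 and NM_001025258 each match those same 4 transcripts. The probe for NM_001025256 matches only NM_001025259 besides its own, so it shares no listed transcript with the others. By these listed matches 3 sets of transcripts have a probe of their own, and the first pair of sets is also read together by 2 further probes. Some of these probes share long runs of bases. Whether the sets are read apart on the array was not tested.

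The probes sit in the middle and towards the end of the transcribed region. The probes for NM_001025251 and NM_001025254 end at the same base, 82578935, begin at 82575624 and 82575198, and share a run of 51 bases. The probe for NM_001025255 covers 60 bases, from 82578998 to 82579058, with no gap in the genome. The probe for NM_001025258 runs from 82579060 to 82584111. The probe for NM_001025256 begins at 82575624 and ends at 82584111, so it passes over the stretch that the NM_001025255 probe reads, and it shares 48 bases with the NM_001025258 probe. The other 8 of the 10 pairs of Mbp probes share runs of at most 13 bases.

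**Figure D2:**
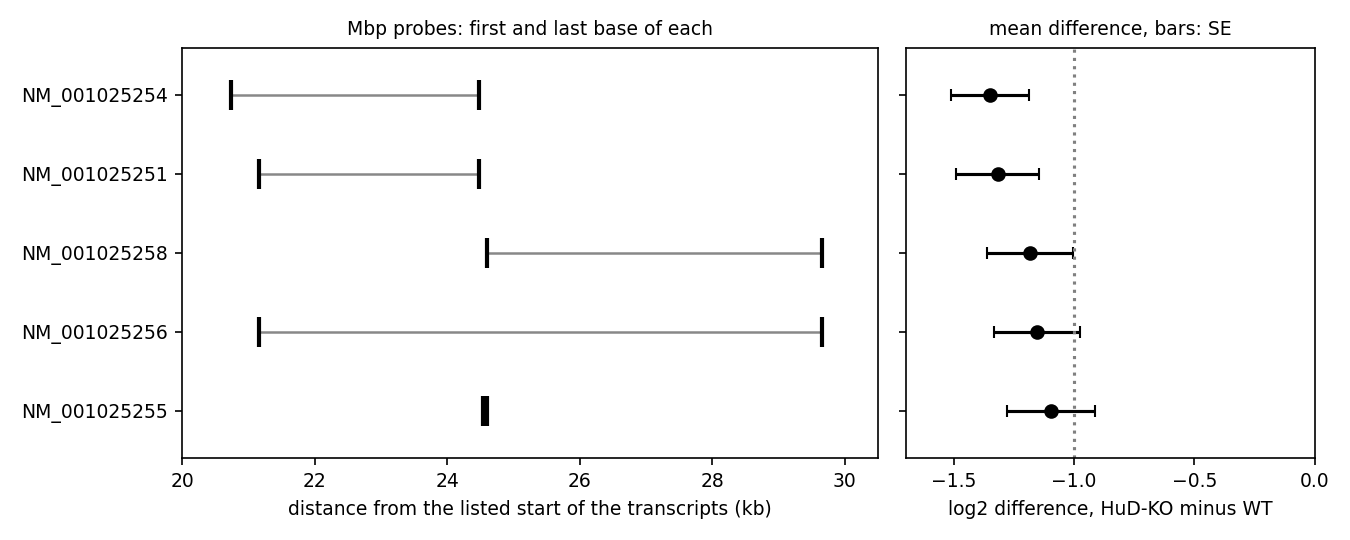
Left, first and last base of each Mbp probe (ticks, joined by a grey line) as distance in kb from the earliest listed transcript start; right, log2 difference HuD-KO minus WT with its SE, and a dotted line at 2-fold. Both probes that end at the same base and begin upstream of it had the largest differences (-1.35 and -1.32), and the probe within a single stretch of the genome the smallest (-1.10). The probes with the largest differences were also the dimmest in WT.

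Mbp was lower in HuD-KO by every one of its probes. The probe for NM_001025254 had processed signals of 285, 339 and 298 on HuD-KO replicates 1, 2 and 3, and of 689, 537 and 737 on the WT replicates. Its scaled level was -0.85 ± 0.18 (SD, n = 3) in HuD-KO and 0.50 ± 0.26 in WT, a log2 difference of -1.35 (SE 0.16), or 2.55-fold lower. This was the largest difference of the 5, and the lowest WT array stood 1.86-fold above the highest HuD-KO array.

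The probe for NM_001025251, which shares most of its bases with the former, gave 508, 597 and 516 in HuD-KO and 1181, 907 and 1291 in WT. The scaled log2 level was -0.04 ± 0.19 (SD, n = 3) in HuD-KO and 1.28 ± 0.28 in WT, and the difference was -1.32 (SE 0.17), or 2.49-fold lower. As with the former probe, HuD-KO replicate 2 was the brightest HuD-KO array and WT replicate 2 the dimmest WT array.

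The probe for NM_001025258 gave 2041, 2274 and 1906 in HuD-KO and 4218, 3146 and 4458 in WT. The log2 difference of the scaled levels was -1.18 (SE 0.18), from 3.09 ± 0.28 (SD, n = 3) in WT to 1.90 ± 0.22 in HuD-KO. This probe lay in the middle of the 5 Mbp differences.

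The probe for NM_001025256, with signals of 2372, 2647 and 2534 in HuD-KO, gave 4986, 3624 and 5545 in WT. The scaled level was 2.19 ± 0.12 (SD, n = 3) in HuD-KO and 3.34 ± 0.34 in WT, a log2 difference of -1.15 (SE 0.18). It had the narrowest spread of the 5 within HuD-KO and the widest within WT.

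The probe for NM_001025255 gave 1809, 1981 and 1651 in HuD-KO and 3371, 2617 and 3735 in WT. Its scaled level of 1.71 ± 0.23 (SD, n = 3) in HuD-KO and 2.81 ± 0.29 in WT differed by -1.10 (SE 0.18) on the log2 scale. At 2.14-fold lower this was the member nearest to the 2-fold limit of the lists. It fell short of that limit without HuD-KO replicate 3 (-0.97) and without WT replicate 3 (-0.95), and the NM_001025256 probe did so without WT replicate 3 (-0.99). Probes that were just outside the limit by the authors' own values are not in the lists and carry no name, so those cannot be set beside it.

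Over the 5 Mbp probes the difference ranged from 2.14-fold to 2.55-fold lower, with a median of 2.27-fold. All 5 were well above background on all 6 arrays, with spot signals before subtraction of 15.4 to 152 times the local background in HuD-KO and 29.97 to 350 times in WT. The 6 members of both genes all passed over 2-fold lower with an unadjusted limma p under 0.05, as did 4.33% of the 47857 probes tested. In all 6 every HuD-KO array lay below every WT array, which was also so for 22.5% of the tested probes. Both counts follow from the way the members were chosen, and nothing is read from them.

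The probes of Mbp differed somewhat from each other. Among their 10 pairs, the NM_001025251 probe minus the NM_001025255 probe within each array averaged -1.75 ± 0.08 (SD, n = 3) in HuD-KO. The range there was -1.83 to -1.68 on the log2 scale. In WT the same difference was -1.52 ± 0.01, between -1.53 and -1.51. The gap between these probes was thus 0.22 wider in HuD-KO, although the NM_001025255 probe reads the listed targets of the NM_001025251 probe among its 4. Against the NM_001025258 probe, the NM_001025254 probe lay at -2.75 ± 0.08 in HuD-KO and -2.59 ± 0.03 in WT, a change of -0.17. The change between NM_001025256 and NM_001025258 was 0.03, against an SD of 0.11 in HuD-KO and 0.06 in WT. These probes share no listed transcript but have a run of 48 bases in common, so they are not separate measurements. With normexp background correction the probes for NM_001025254 and NM_001025251 still had the largest differences, at -1.21 and -1.20, and the other 3 lay between -1.13 and -1.06. The NM_001025254 and NM_001025251 probes were also the dimmest, with mean WT signals of 654 and 1127, against 3241 to 4719 for the other 3. The part of brightness in these differences was not tested.

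The 3 arrays of a group stood in the same order by all 5 Mbp probes. In HuD-KO, replicate 2 was the highest (0.12 to 0.20 above the group mean on the log2 scale) and replicate 3 the lowest (0.11 to 0.26 below). In WT, replicate 3 was the highest, by 0.25 to 0.33 above the mean, and replicate 2 the lowest, by 0.26 to 0.34 below. This order, which the selection of the members did not use, was shared in both groups by 9.06% of all tested probes. Fgfr3 had another order in WT, with replicate 2 the highest and replicate 3 the lowest, which was found in 26.4% of tested probes. Its HuD-KO arrays were not well above background and were not ordered. The spread of the Mbp probes within WT exceeded that of 72.4% to 81.8% of tested probes, and within HuD-KO that of 51.8% to 79.5%.

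One Mbp spot, that of the NM_001025255 probe, lies in a corner of the array that was dim on HuD-KO replicate 2, where the median log2 level of 7472 tested probes was -0.18 relative to the other HuD-KO arrays, against 0.03 over the rest of the array. The level of that spot on HuD-KO replicate 2 was nevertheless the highest of the 3 HuD-KO arrays, and without this array the log2 difference was -1.19. HuD-KO replicates 1 to 3 and WT replicate 1 lay in the first row of the slide and WT replicates 2 and 3 in the second. Within the first row alone, the 5 Mbp differences were -1.36 to -1.09 and the Fgfr3 bound was -1.22.

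**Figure D3:**
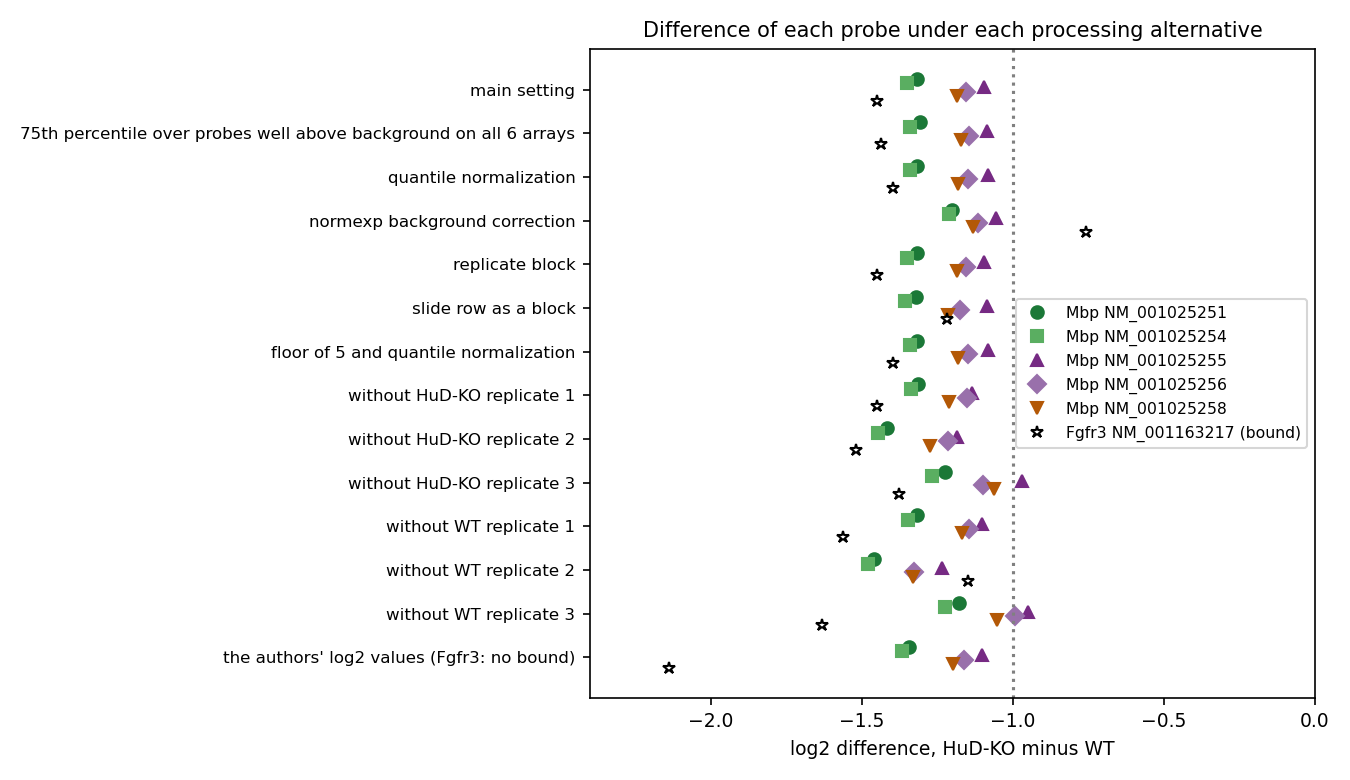
Log2 difference HuD-KO minus WT of each Mbp probe (filled symbols) and the bound for Fgfr3 (open stars) under the main setting and each alternative, with a dotted line at 2-fold. For the authors' log2 values the star is the Fgfr3 difference with no bound applied. The Mbp differences stayed between -1.48 and -0.95, while the Fgfr3 bound moved to -0.76 with normexp background correction.

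Of the 40 genes in the list of oligodendrocyte and myelin genes, the deposited lists name 4, with 3 lower (Mbp, Bcas1 and Enpp2) and 1 higher (Plekhb1) in HuD-KO. The median log2 difference of their 10 probes was -1.25. Over all 1031 listed genes, 72.1% were listed as lower only, and the median over all listed probes was likewise -1.25, while over all tested probes it was 0.04. Other defining genes of the cell type such as Mog, Mag and Olig2 are not among the listed genes, and since probes outside the lists carry no gene name, their levels were not analysed here. That Mbp was chosen from these lists means that the counts describe what is listed and not the cell type.

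Bcas1, which marks oligodendrocytes as they begin to myelinate, was listed by 2 probes. The NM_001164369 probe gave signals of 320, 344 and 292 in HuD-KO and 788, 690 and 896 in WT, a log2 difference of -1.58 (SE 0.16). The NM_029815 probe gave 241, 265 and 256 in HuD-KO and 534, 436 and 542 in WT, a difference of -1.25 (SE 0.12). In both probes every HuD-KO array lay below every WT array, which was also so for 22.5% of all tested probes. The listed probes were selected on this contrast, so nothing is read from that. Both Bcas1 probes had the same order of arrays within each group as Mbp, as did 9.06% of tested probes.

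Enpp2, the secreted enzyme autotaxin that forms lysophosphatidic acid, is made by oligodendrocytes and also by the choroid plexus. The NM_015744 probe gave signals of 47449, 83022 and 58910 in HuD-KO and 127938, 104356 and 136474 in WT, and the log2 difference was -1.26 (SE 0.23). The second Enpp2 probe, ENSMUST00000171545, gave 4505, 3636 and 4008 in HuD-KO and 8022, 9261 and 5627 in WT, a difference of -1.16 (SE 0.19). The probes disagreed within the groups, since WT replicate 2 was the lowest WT array by the first and the highest by the second. Plekhb1, a membrane-bound protein found in myelin-forming cells, was well above background on 1 of 3 HuD-KO and 0 of 3 WT arrays, so no fold is given for it.

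Of the 10 oligodendrocyte precursor genes, 1 was listed. Ptprz1, a receptor tyrosine phosphatase of precursors and astroglia, gave 809, 969 and 1090 in HuD-KO and 2484, 2842 and 1785 in WT. Its log2 difference was -1.56 (SE 0.17). Like Fgfr3 and the second Enpp2 probe, it was highest in replicate 2 and lowest in replicate 3 among the WT arrays. That order in WT was found in 26.4% of tested probes.

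Of the 36 astrocyte genes, 3 were listed, all lower in HuD-KO: Fgfr3, Vim and Gli3, with a median log2 difference of -1.16. Lower only was also the listing of 72.1% of all 1031 listed genes, so nothing about the cell type is read from this count. Vim, the intermediate filament protein vimentin, is also made by ependymal and vascular cells. It gave 489, 472 and 504 in HuD-KO and 954, 743 and 1015 in WT, a log2 difference of -1.15 (SE 0.14). Gli3, a transcription factor of the Hedgehog pathway, gave 68.1, 127 and 135 in HuD-KO and 230, 176 and 183 in WT, a difference of -1.16 (SE 0.24), with HuD-KO replicate 1 well below the other arrays of its group. The commonly used astrocyte genes Aqp4, Gfap and Aldh1l1 are not among the listed genes.

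The FGF pathway was represented by few listed genes. Fgfr3 was the only listed one of 14 receptors and coreceptors, and none of Fgfr1, Fgfr2 and Fgfr4 was listed. Of 22 FGF ligands, Fgf5 was listed, as higher in HuD-KO. It was dim, with signals of 59.5, 31.2 and 55.6 in HuD-KO and 20.3, 14.4 and 19.8 in WT, was well above background on 3 of 3 HuD-KO and 2 of 3 WT arrays, and had a measured log2 difference of 1.12 (SE 0.27). With the WT array that was not well above background set to the lowest signal that was, Fgf5 was 2.03-fold higher in HuD-KO.

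Of 26 transducers and feedback regulators, Ptpn11 was listed. This gene encodes the phosphatase SHP2, which acts below FGF receptors and many other receptors. It gave 744, 756 and 657 in HuD-KO and 1373, 1267 and 1209 in WT, a log2 difference of -1.11 (SE 0.12). Every HuD-KO array lay below every WT array, as for 22.5% of all tested probes. This too follows from the selection of the listed probes, and nothing is read from it.

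Genes of the cells that line the ventricles were also listed as lower. Of 12 genes of choroid plexus and ependyma, 5 were listed, all lower in HuD-KO, with a median log2 difference of -1.66. They were Tmem212 and Ccdc153, known from ciliated ependymal cells, Kcnj13, a potassium channel of the choroid plexus, Rarres2, the secreted protein chemerin, and Clic6. Over all 1031 listed genes, 72.1% were listed as lower only, so these counts describe what is listed and not the cell types. The mean centred log2 level of the 5 was between -1.26 and -0.46 in HuD-KO and between 0.33 and 1.48 in WT. For Mbp the same measure, over its 5 probes, was between -0.80 and -0.44 in HuD-KO and between 0.32 and 0.89 in WT.

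All 5 of the ependymal and choroid plexus probes had the same order of arrays as Mbp in both groups, an order found in 9.06% of all tested probes. The order rests on 3 arrays per group, so these probes do not count as separate observations. So did 2 of the 4 other oligodendrocyte probes with all 6 arrays well above background, but 0 of 2 astrocyte probes other than Fgfr3 and not the Ptprz1 probe. Tmem212 stood out in that WT replicate 2, at 4348, was far below WT replicates 1 and 3, at 11578 and 16525, and close to HuD-KO replicate 2, at 4463. In Kcnj13 it was HuD-KO replicate 2, at 1539, that stood apart from HuD-KO replicates 1 and 3, at 459 and 506. The part of ventricular lining in the Mbp and Fgfr3 differences was not tested.

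**Figure D4:**
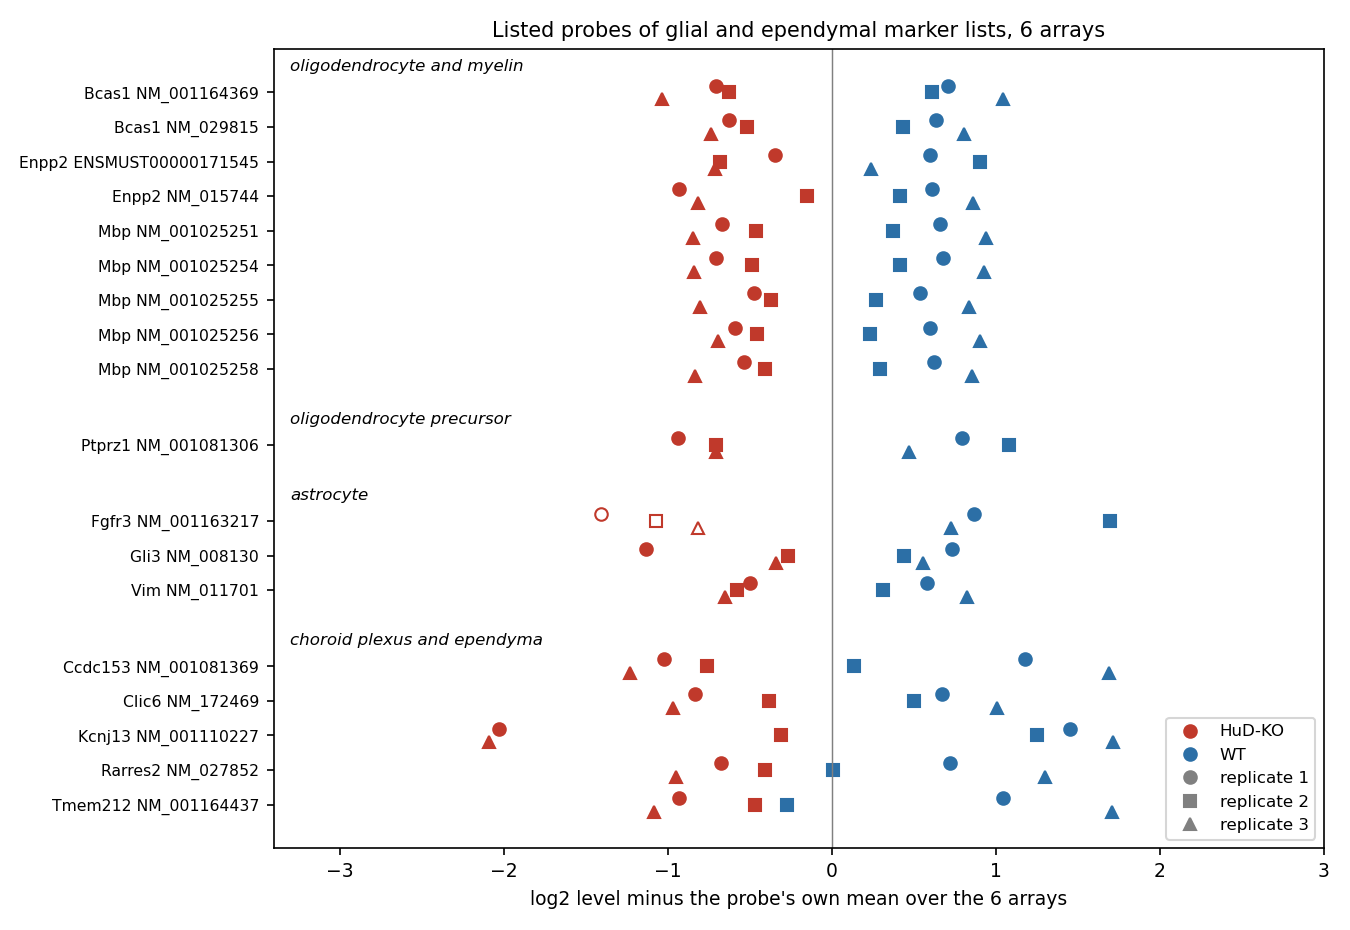
Log2 level of listed probes of 4 marker lists, each minus the mean of that probe over the 6 arrays. Only probes well above background on every array of at least 1 group are shown. This leaves out Plekhb1, which is listed as higher in HuD-KO. Symbols are single arrays, and open symbols mark a group that was not well above background on every one of its arrays. Within each group the Mbp, Bcas1 and all 5 choroid plexus and ependyma probes keep one order of arrays, found in 9.06% of tested probes. In it WT replicate 2 (blue squares) is the lowest WT array. WT replicate 2 is the highest for Fgfr3, Ptprz1 and the ENSMUST00000171545 probe of Enpp2, whose order in WT was found in 26.4% of tested probes.

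Neuronal genes went in both directions. Of 17 genes of cortical and other forebrain neurons, 6 were listed, with 4 higher, among them Neurod6, and 2 lower (Camk2a and Gad2) in HuD-KO. Neurod6, a transcription factor of cortical excitatory neurons, was 3.24-fold higher in HuD-KO, with a log2 difference of 1.69 (SE 0.28). Camk2a, the alpha subunit of a calcium-dependent kinase of forebrain neurons, was 2.80-fold lower (-1.48, SE 0.13), and Gad2, which makes the transmitter GABA, was 1.95-fold lower (-0.97, SE 0.14). None of 21 genes of striatal neurons, 16 of microglia and macrophages or 12 of endothelial and mural cells was listed, so the labelled tissue was not checked against its own markers. The part of tissue composition in the Mbp and Fgfr3 differences was not tested.

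The listed genes with levels most like those of Mbp were found by the root mean squared difference over the 6 arrays, each probe centred on its own mean, among 891 listed probes of other genes with every array well above background. Rapgef3, an exchange factor activated by cyclic AMP, was among the nearest 3 for 4 of the Mbp probes, with the smallest distance of 0.04 to NM_001025258. Gpld1, a phospholipase, was the nearest to NM_001025251 (0.05) and NM_001025254 (0.07), and Bcas1 NM_029815 was among the nearest 3 for both of these (0.08 each). Sik1, a kinase, was the nearest to NM_001025255 (0.04). The others were Cyb5r3 and Csrp2 for NM_001025255, Ccdc151 and Scrn2 for NM_001025256 and Mylpf for NM_001025258. For comparison, the distances between the 10 pairs of Mbp probes ran from 0.03 to 0.14, so some genes lay nearer to a Mbp probe than other Mbp probes did.

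For Fgfr3 no such genes are given, since its HuD-KO levels were not well above background and their distances to other probes would rest on them. The likeness to Mbp rests largely on the difference between the groups, on which all listed genes were selected.

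The HuD-KO arrays were brighter than the WT arrays before scaling. By the 75th percentile of their signals, the arrays stood at 535, 547 and 615 for HuD-KO replicates 1, 2 and 3 and 496, 464 and 446 for the WT replicates, so that the groups did not overlap, and the mean of HuD-KO was 1.21 times that of WT. This was removed by the scaling to that percentile. Between 77.8% and 82.0% of target spots were well above background. The listed Elavl4 probe, which reads the targeted gene, had signals of 8.12 to 11.3 in HuD-KO, where 0 of 3 arrays were well above background, and of 181 to 275 in WT, where 3 of 3 were. The precision of every value is limited by the 3 arrays per group.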

How the data were processed

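Striatal RNA of 3 HuD-KO mice and 3 WT littermates was hybridized, 1 mouse per array, to 1-colour arrays with probes for mouse mRNAs and long non-coding RNAs. Per the labels, the RNA was depleted of ribosomal RNA before amplification with mixed oligo(dT) and random priming. The deposited scanner files give the Cy3 intensity at 62939 spots, background-subtracted by the scanner software and not normalized between arrays. The authors also deposited lists of transcripts higher and lower in HuD-KO, which carry an intensity and a normalized log2 value per array; how these were normalized is not given in the sources used here. Their columns of p-values, FDR, fold changes and group means hold the authors' own comparison and were not used.

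Processed signals were put on a log2 scale, and from each array its 75th percentile over target probes was subtracted. Of 60915 target probes, 65 were left out because of an outlier mark. Those well above background on every array of at least 1 group, 47857 in all, were tested with limma 3.58.1 (R 4.3.3, lmFit, then eBayes, two-sided). No target spot was saturated. Calls were counted at a difference over 2-fold and an unadjusted p under 0.05. For a bound, each HuD-KO array entered with the lowest signal well above background on it, or with the signal of the probe where that was higher. Standard errors come from the limma fit. The fit was tested on simulated data. Python 3.11.15, pandas 2.3.3, numpy 2.4.6 and matplotlib 3.10.9 were used for tables and plots.

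Gene names, transcripts and coordinates are those of the deposited lists, and the 2 genes were matched by symbol to RefSeq (GRCm38.p6) to count curated transcripts. The members and the gene lists were chosen with earlier results of these data known. Named were all listed probes of Mbp and Fgfr3, the listed members of the glial and FGF lists, up to 3 listed members of other lists by signal, and the 3 listed probes most like each Mbp probe. The names of the other listed genes of choroid plexus and ependyma were added after their values were seen. Alternatives are given in the closing section. The adjusted p planned for a second set of calls was not used. For normexp (offset 50) the median of each spot was taken, as the files hold no mean.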

Additional observations from a re-analysis of the deposited data

How the results depend on the processing

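All 65 values of the 5 Mbp probes under the 13 alternatives kept their direction and moved by less than 1 SD between replicates, within -1.48 and -0.95 on the log2 scale, and 3 of them were under 2-fold. Of 13 values for Fgfr3, set against its bound, 11 did so. The bound moved to -0.76 with normexp background correction. The authors' log2 values, to which no bound was applied, gave -2.14. That value is to be set beside the measured difference of -2.19 and not beside the bound. The replicate number as a block is among these alternatives and could not move any of these values. Leaving out 1 array gave bounds of -1.63 to -1.15 for Fgfr3. Of all tested probes, 765 were higher and 2072 lower over 2-fold with an unadjusted p under 0.05, against 325 and 1050 with normexp, and 695 to 984 and 2020 to 2400 when 1 array was left out. The cause of these changes was not tested. No filter on dim probes gave 1005 and 2613, a filter on all 6 arrays 578 and 1667, and the methods' t-test 681 and 1932.

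The replicate numbers did not pair the arrays: deviations of same-numbered arrays correlated at -0.03, -0.06 and -0.13. Each replicate number holds 1 array of each group, so a block for it cannot change a difference of group means. The Mbp differences of -1.35 to -1.10 and the Fgfr3 bound of -1.45 were therefore unchanged, and nothing is read from that. With this block 763 probes were called higher and 2047 lower. A block for the slide row, and a floor of 5 with quantile normalization were added after seeing the data. The median over spots was not run, since each member has 1 spot. The dim signal of Fgfr3 in HuD-KO limits its difference to a bound.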
